A study of Mus musculus with 25 samples.

Results

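The Hedgehog pathway was followed in the E14.5 mouse palate through 10 of the 37406 genes measured. These were the ligand Shh, its receptor Ptch1, the signal transducer Smo, the transcription factors Gli1, Gli2 and Gli3, the ligand-binding inhibitor Hhip and the co-receptors Boc, Cdon and Gas1. They were chosen by gene symbol alone, and each symbol matched 1 gene of the table. RNA was sequenced from pieces of palate cut by laser capture microdissection, in which a laser excises a chosen area of a tissue section. All embryos were wild type CD1 mice at E14.5, the embryonic day at which the palatal shelves close the roof of the mouth, and the labels name no treatment for any group. The anterior and the posterior palate were each divided into medial and lateral and into oral and nasal compartments, which gave 8 compartments and 25 libraries, 3 for each compartment and 4 for anterior nasal. Levels are RPKM, in which reads are divided by the length of the transcript and by the depth of the library, so that levels of different genes can be set side by side per unit of length.

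Hedgehog signaling works by release from inhibition. Without ligand, Ptch1 keeps Smo inactive; Shh bound to Ptch1, with the help of Boc, Cdon and Gas1, frees Smo, which acts at the primary cilium to change the processing of Gli2 and Gli3. Ptch1, Gli1 and Hhip are direct targets of the pathway, and their transcripts are widely read as its output. In the palate, Shh is made by the epithelium of the forming rugae, on the oral side, and is received by the mesenchyme beneath it.

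The libraries held an implied 1.64 to 6.56 M mapped reads, median 3.27 M, and correlations between replicates across genes lay between 0.612 and 0.932. The 6 markers of mesenchyme were above 0 in every library, with a summed level of 572 to 1239 RPKM, and the 14 markers of epithelium summed to 33.3 to 210 RPKM, so each compartment held both tissues. Library posterior medial 2 had 12935 genes above 0, against 16330 to 20605 in the other 24 libraries. The libraries came from 8 sequencing runs, given the letters A to H here, and most compartments were spread unevenly over them. In whole pieces of tissue, fewer cells of a type and less of an RNA per cell cannot be told apart. The labels do not tie libraries to embryos, so that p-values measure the spread between these samples.

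Shh (chr5:28783380-28793641 in mm9, the build of these coordinates throughout), the ligand, was close to absent from 21 libraries and stood at one level in the other 4, all of them from run H. It measured 15.4 RPKM in anterior lateral 3, 15.3 in posterior lateral 2, 16.8 in posterior lateral 3 and 15.3 in posterior nasal 3, which corresponded to 97.0 to 106 reads in each. In the remaining 21 libraries it ranged from 0 to 0.957 RPKM, median 0.108, or at most 6 reads, and 8 of those libraries had none. The split followed the run and not the compartment: the other libraries of anterior lateral, posterior lateral and posterior nasal lay with the 21.

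Across the 11913 genes that reached 5 RPKM in 3 or more libraries, 4 genes (0.0336%) had all 4 libraries of run H above all others. These were Shh, with a gap of 15.9-fold between the lowest library of run H and the highest of the rest, Sprr1a (8.30-fold), a cornified envelope protein of stratified epithelium, Gstm1 (1.98-fold) and Upk1a (1.24-fold), a uroplakin of urothelium. The epithelial markers did not move with Shh: their sum was 33.3 to 77.1 RPKM in run H and 34.1 to 210 in the other runs. A sum of 5 uroplakin genes, added after Upk1a was seen, was 16.5 to 23.8 RPKM in run H and 0.341 to 10.0001 elsewhere. The part of these genes, or of the run, in the level of Shh was not tested. In the only comparison of a pair of compartments in which Shh passed the filter on low values, posterior against anterior lateral, its log2 difference was 1.18 with a standard error of 2.35 (limma, adjusted p = 0.903). Where a comparison of compartments for Ptch1, Hhip, Gli1 or Gas1 included libraries of run H, its value without them is given beside it.

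**Figure D1:**
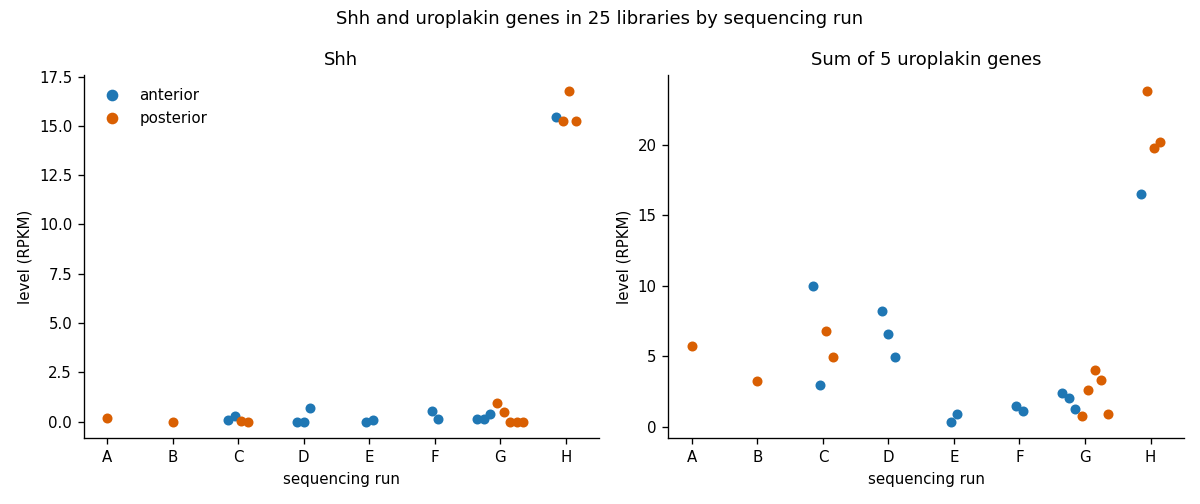
Level of Shh and the summed level of 5 uroplakin genes (RPKM, linear axes) in each library by sequencing run; each point is 1 library, blue for anterior and orange for posterior palate. The 4 libraries of run H sit between 15.3 and 16.8 RPKM for Shh and the other 21 at or below 0.957 RPKM, and the uroplakin sum is also highest in run H.

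The other 9 genes were expressed in all 25 libraries. Ptch1 was the most abundant, with 26.2 to 115 RPKM and a median of 60.03, followed by Smo (29.2 to 72.2, median 46.5), Gas1 (21.4 to 82.7, median 33.9) and Gli3 (23.6 to 44.3, median 33.6). Cdon (median 30.5 RPKM), Boc (28.3) and Gli2 (23.0) lay in the middle. Gli1, with a median of 14.9 RPKM, and Hhip, with 11.2 RPKM, were lowest. The direct targets were among the genes that varied most. The coefficient of variation over the 25 libraries was 57.1% for Gli1, 42.1% for Hhip and 39.1% for Ptch1, against 16.1% for Gli3 and 19.6% for Smo. Gas1, at 40.1%, varied as much as the targets. When the 8 compartments were put in order of their mean level, 61 of the 63 neighbouring pairs over these 9 genes had overlapping libraries.

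**Figure D2:**
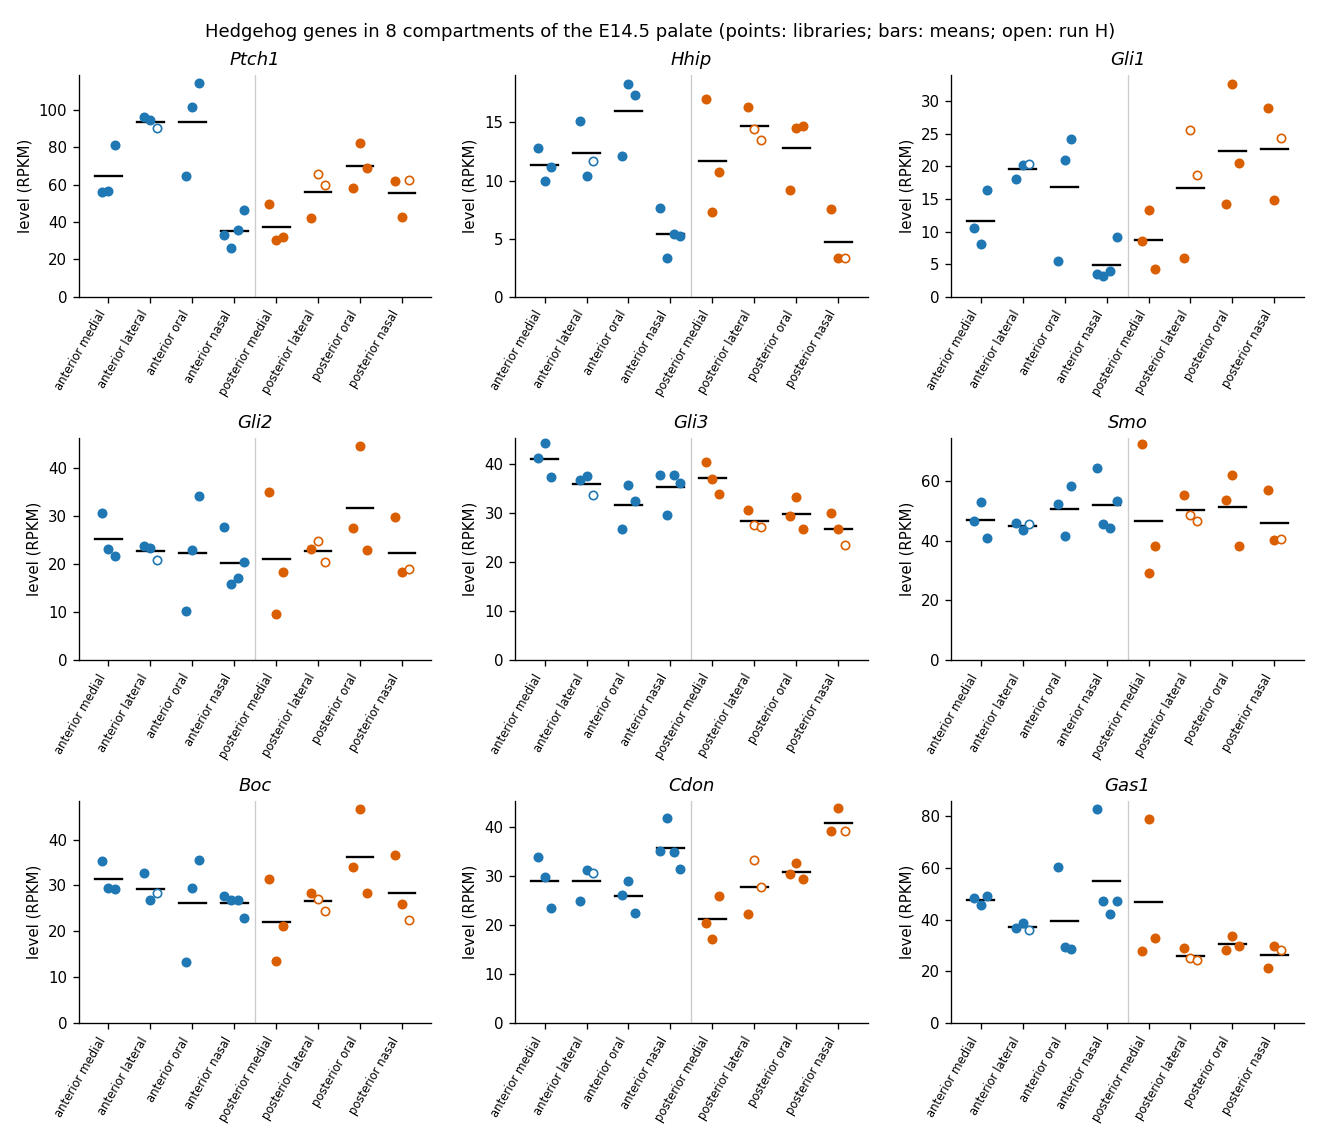
Level of each Hedgehog gene except Shh (RPKM, linear axes from 0) in the 8 compartments. Points are libraries, bars are compartment means and open points are libraries of run H. Ptch1 and Hhip differ most clearly by compartment, and Smo is level throughout.

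A test across all 8 compartments called 2 of the 10 genes, Ptch1 and Hhip, where 4.42% of all genes tested were called (limma F-test, adjusted p under 0.05). For Hhip the compartment means spanned 1.82 log2 units, or 3.52-fold (adjusted p = 0.00526). For Ptch1 they spanned 1.43 log2 units, or 2.70-fold (adjusted p = 0.00539). Gli1 had a wider span, 2.27 log2 units or 4.81-fold, but missed the threshold with an adjusted p of 0.1001. It passed without posterior lateral 1 (adjusted p = 0.0365) or without anterior oral 1 (adjusted p = 0.0265). Cdon, with an adjusted p of 0.0801, passed without posterior medial 3 (adjusted p = 0.0436). The lowest span was that of Smo, 1.19-fold, with an adjusted p of 0.990. Ptch1 was called in each of the 10 other settings of the test, with an adjusted p of 0.0339 without run H, and with each of the 25 libraries left out. Hhip was called in 8 of those 10 settings and with each library left out. The settings in which Hhip missed were the fit with sequencing run as a term (adjusted p = 0.0923) and the fit without the 4 libraries of run H (adjusted p = 0.0957).

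Ptch1 (chr13:63609644-63666828), the receptor and a direct target, was highest in the anterior oral and anterior lateral compartments and lowest in anterior nasal and posterior medial. In anterior oral it measured 64.7, 102 and 115 RPKM, and in anterior nasal 33.2, 26.2, 36.0 and 46.6 RPKM, so that the groups did not overlap. The means were 93.6 ± 25.9 (SD, n = 3) and 35.5 ± 8.50 RPKM (SD, n = 4), a log2 difference of 1.39 (SE 0.30), or 2.61-fold. Ptch1 passed the thresholds used by the study, a fold change above 2 with a P below 0.05, taken here without adjustment, and missed after adjustment over all genes (adjusted p = 0.533), as did every one of the 10684 genes tested. The same direction was seen inside each of the 3 runs that held both compartments, with log2 differences of 1.29 in run C, 1.13 in run D and 1.495 in run E. In a fit of all 25 libraries, which shares 1 estimate of spread, the adjusted p was 0.0463. Over 11 other settings of the fit, that one included, the adjusted p ranged from 0.0463 to 0.895, and Ptch1 was called in only 1.

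In the posterior palate the oral libraries of Ptch1 were at 58.0, 82.6 and 68.8 RPKM and the nasal libraries at 61.8, 42.7 and 62.6 RPKM, which overlapped. The log2 difference was 0.33 (adjusted p = 0.999), from means of 69.8 ± 12.3 and 55.7 ± 11.3 RPKM (SD, n = 3 each), and 0.43 without run H. The oral to nasal difference of Ptch1 had an interaction of -1.05 log2 units between the posterior and the anterior palate, with a standard error of 0.39, and of -0.96 without run H. This interaction had an unadjusted P of 0.0203 and an adjusted p of 1.00, so that a change along the anterior-posterior axis was not detected after adjustment.

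**Figure D3:**
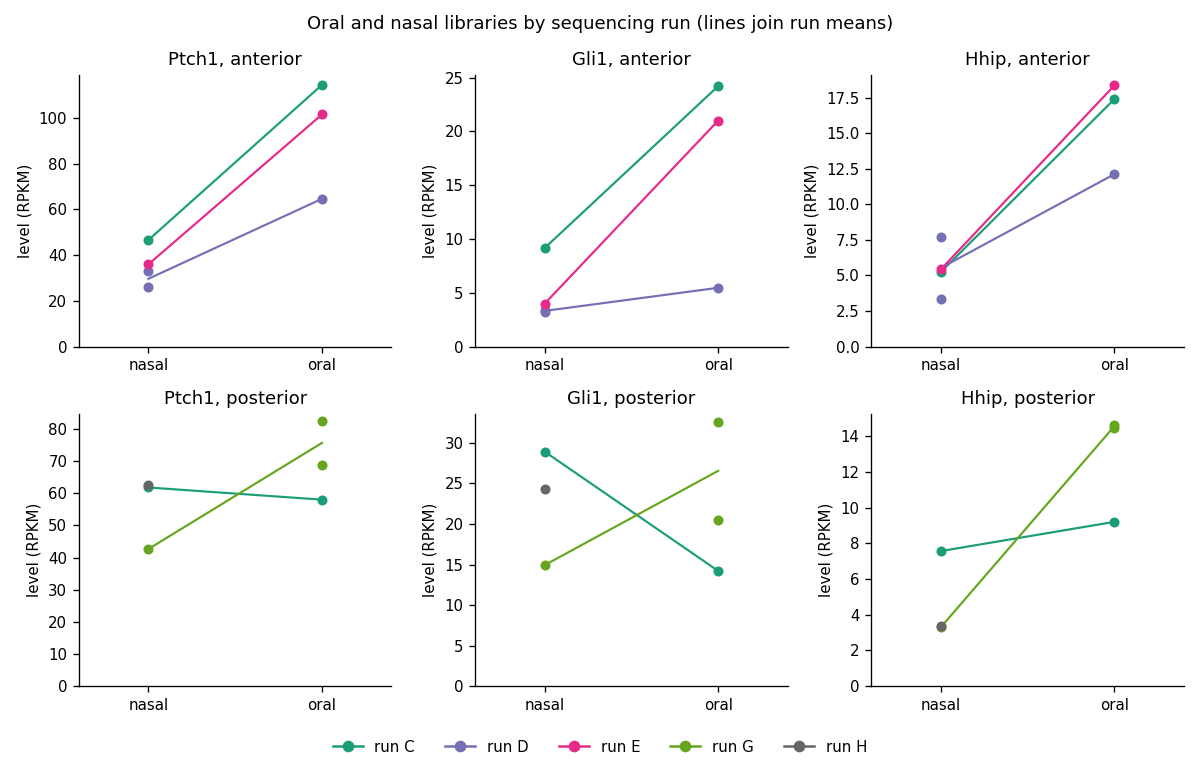
Levels of Ptch1, Gli1 and Hhip (RPKM, axes from 0) in nasal and oral libraries of the anterior and the posterior palate; each point is a library coloured by sequencing run, and lines join the means of a run. In the anterior palate the lines of runs C, D and E rise from nasal to oral for all 3 genes, while in the posterior palate Ptch1 and Gli1 rise in run G and fall in run C.

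Along the medial-lateral axis, Ptch1 was at 96.3, 94.9 and 90.4 RPKM in anterior lateral and at 56.1, 56.8 and 81.5 RPKM in anterior medial. Every lateral library was above every medial one. The means were 93.9 ± 3.08 and 64.8 ± 14.46 RPKM (SD, n = 3 each), 1.47-fold apart (log2 difference 0.56, SE 0.16, adjusted p = 0.153). The spread of the medial group came from anterior medial 3; without it the log2 difference was 0.73 and the adjusted p 0.0422. Without run H, which held anterior lateral 3, the log2 difference of Ptch1 was 0.58 (adjusted p = 0.334). No sequencing run held both compartments, so that run and compartment cannot be told apart there. A fit of all 25 libraries with run as a term gave 0.21. The cartilage markers summed to 20.7 to 21.6 RPKM in anterior lateral and 67.6 to 109 in anterior medial, the endothelial markers to 142 to 162 and 102 to 123 RPKM, and the 6 nerve and Schwann cell markers to 18.1 to 22.0 and 38.1 to 61.8 RPKM; their part in this difference was not tested.

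Posterior libraries of Ptch1 lay below the anterior ones in both of these compartments. Posterior lateral measured 42.3, 65.7 and 60.03 RPKM, all below anterior lateral, with a mean of 56.0 ± 12.2 RPKM (SD, n = 3). The log2 difference from anterior lateral was -0.77 (SE 0.19, adjusted p = 0.150). Without the 4 libraries of run H, which left 1 posterior library against 2 anterior ones and so gives no test, it was -1.18, and between libraries of run H alone it was -0.53. Several marker sums also did not overlap between posterior and anterior lateral: cartilage at 46.6 to 77.2 against 20.7 to 21.6 RPKM, epithelium at 33.3 to 56.6 against 57.9 to 120, mesenchyme at 849 to 880 against 776 to 808, and nerve and Schwann cells at 11.7 to 15.1 against 18.1 to 22.0. Their part in the lateral differences of Ptch1, Gas1, Gli3 and Gli1 was not tested. Posterior medial measured 49.8, 30.2 and 32.01 RPKM, again all below anterior medial, with a log2 difference of -0.81 (SE 0.31, adjusted p = 0.831) and of -1.04 within run G. In the nasal compartment the order was turned round: 55.7 ± 11.3 RPKM in posterior nasal against 35.5 ± 8.50 in anterior nasal, a log2 difference of 0.66 (SE 0.25, adjusted p = 0.219; 0.56 without run H). With all 12 posterior and 13 anterior libraries compared, Ptch1 averaged 54.7 ± 15.6 and 69.1 ± 29.2 RPKM (SD) and did not pass the test (adjusted p = 0.645; 0.660 without run H).

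The promoters of Ptch1 and Hhip, the genes called across the compartments, are printed to show what sequence lies at their starts. They were taken from RefSeq in another build than the files (GRCm38.p6), from 250 bases before to 50 bases after the start of the gene, and are written 5′ to 3′ in the direction of transcription, on the minus strand. Capitals mark GGGCGG, the GC box, on either strand; it reads CCGCCC where it lies on the other strand.
Ptch1 promoter, chr13:63565686-63565985: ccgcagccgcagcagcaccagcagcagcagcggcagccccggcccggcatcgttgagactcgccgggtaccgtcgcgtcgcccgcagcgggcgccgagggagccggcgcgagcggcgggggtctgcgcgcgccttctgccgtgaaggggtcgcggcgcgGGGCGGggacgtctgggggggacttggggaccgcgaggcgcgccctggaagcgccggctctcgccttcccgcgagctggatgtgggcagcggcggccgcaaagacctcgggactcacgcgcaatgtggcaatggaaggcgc
Hhip promoter, chr8:80057959-80058258: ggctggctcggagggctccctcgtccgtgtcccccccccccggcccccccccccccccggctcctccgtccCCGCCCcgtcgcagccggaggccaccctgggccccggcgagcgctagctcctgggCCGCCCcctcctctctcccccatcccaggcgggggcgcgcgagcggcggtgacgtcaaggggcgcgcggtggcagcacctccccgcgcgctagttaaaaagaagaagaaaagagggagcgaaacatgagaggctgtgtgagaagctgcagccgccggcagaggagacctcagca
Ptch1 held 1 GC box, beginning 91 bases before the start, and Hhip held 2, beginning 179 and 124 bases before it; 35.7% of the 32851 promoters of the same length held at least 1. Both were rich in G and C, 76.3% for Ptch1 and 73.7% for Hhip, against a median of 52.7% over all promoters. The letters GACCACCCA, the core bound by Gli proteins, were in 0 of the 7 Hedgehog genes with a promoter in the table and in 83 of all 32851 (0.253%). That says only that these letters are not within this window.

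Hhip (chr8:82489750-82581907), which binds Hedgehog ligand at the cell surface and limits its reach, was low on the nasal side of the palate along its whole length. In the anterior palate it was at 12.1, 18.3 and 17.4 RPKM in the oral libraries and at 7.68, 3.36, 5.42 and 5.23 RPKM in the nasal ones, with no overlap. The means were 15.9 ± 3.36 (SD, n = 3) and 5.42 ± 1.77 RPKM (SD, n = 4), 2.98-fold apart (log2 difference 1.57, SE 0.32). Hhip passed the study's thresholds there and not the adjusted test (adjusted p = 0.465). Oral was higher than nasal in each of runs C, D and E, by 1.71, 1.23 and 1.74 log2 units.

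In the posterior palate Hhip measured 9.21, 14.48 and 14.7 RPKM in oral and 7.57, 3.30 and 3.36 RPKM in nasal, again without overlap. The means of 12.8 ± 3.10 and 4.74 ± 2.45 RPKM (SD, n = 3 each) were 2.81-fold apart (log2 difference 1.49, SE 0.36, adjusted p = 0.129). The size depended on the run: the log2 difference was 0.28 in run C and 2.11 in run G. Without run H, which held posterior nasal 3, it was 1.304. In the fit of all 25 libraries, the only 1 of 12 other settings in which Hhip was called, the adjusted p was 0.0496. Of the nasal libraries only posterior nasal 1 reached 5 RPKM. Hhip thus passed the filter on low values through its oral libraries, so that p-value is no support. The oral to nasal difference of Hhip had an interaction of -0.08 log2 units (SE 0.51, adjusted p = 1.00; -0.27 without run H).

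Other cell types moved with the nasal side in the same libraries. The 7 osteoblast markers summed to 92.4 to 121 RPKM in anterior nasal against 46.9 to 75.4 in anterior oral, and to 378 to 550 in posterior nasal against 83.8 to 107 in posterior oral. The 5 cartilage markers also stood higher in anterior nasal (57.4 to 101 RPKM) than in anterior oral (19.7 to 48.8). The 6 endothelial markers went with the oral side, at 121 to 191 RPKM in anterior oral and 69.9 to 118 in anterior nasal, and at 126 to 191 in posterior oral and 55.2 to 85.9 in posterior nasal. Their part in the differences of Ptch1, Hhip and Gli1 was not tested. Along the medial-lateral axis no difference of Hhip was detected. The log2 difference was 0.12 in the anterior palate (SE 0.17, adjusted p = 0.816) and 0.42 in the posterior palate (SE 0.37, adjusted p = 0.957). Without run H these were 0.15 and 0.56. Over the other settings they ranged from 0.11 to 0.56 and from 0.30 to 1.15.

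Gli1 (chr10:126766938-126778942), a transcription factor that is itself switched on by the pathway, was lowest in the anterior nasal compartment. It was at 3.43, 3.19, 3.98 and 9.15 RPKM there and at 28.9, 14.9 and 24.3 RPKM in posterior nasal. Every posterior library was above every anterior one. The means were 22.7 ± 7.14 (SD, n = 3) and 4.94 ± 2.83 RPKM (SD, n = 4), so that Gli1 was 4.81-fold higher in posterior nasal (log2 difference 2.27, SE 0.39, adjusted p = 0.0222). It was the 1 gene of the 9 tested that was called in this comparison, in which 2.21% of all genes were called. Of the anterior libraries only anterior nasal 4 reached the filter's minimum of 5 RPKM. Gli1 thus passed the filter on low values through its posterior libraries, so its call is no support. The median of all genes tested was shifted by 0.12 log2 units toward posterior, and with libraries centred on their medians the difference of Gli1 was 2.13 (adjusted p = 0.0255). The osteoblast markers, given above, also differed widely between these nasal libraries, and the epithelial markers summed to 47.3 to 83.0 RPKM in posterior nasal and 96.5 to 172 in anterior nasal; their part was not tested.

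The call for Gli1 rested on few libraries and on the filter. With no filter on low values, or with a minimum of 1 RPKM, it was lost. It was lost without anterior nasal 1 (adjusted p = 0.0539), anterior nasal 3 (0.0537), posterior nasal 1 (0.129) or posterior nasal 3 (0.112), the last being the only one of the group from run H. Run C was the only run with both compartments, and in it the levels of Gli1 were 28.9 and 9.15 RPKM, a log2 difference of 1.65. With run as a term in the fit of the compared libraries Gli1 had an adjusted p of 0.229, and with run in the fit of all libraries a log2 difference of 1.14 and an adjusted p of 1.00. Over the 12 other settings the adjusted p ranged from 0.0134 to 1.00, and Gli1 was called in 7 of them. Gli1 stood on as few as 30.1 reads in a library, which gives a counting error of up to 18.2%, whereas the other 8 expressed genes stayed at or under 11.4%.

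Between the oral and nasal sides of the anterior palate Gli1 was at 5.46, 21.0 and 24.2 RPKM and at 3.43, 3.19, 3.98 and 9.15 RPKM, and the groups overlapped through the anterior oral library of run D. The means were 16.9 ± 10.03 and 4.94 ± 2.83 RPKM, 3.10-fold apart (log2 difference 1.63, SE 0.58). Gli1 was thereby the third gene to pass the study's thresholds, with an adjusted p of 1.00. Only anterior nasal 4 of the nasal libraries reached 5 RPKM. Gli1 thus passed the filter on low values through its oral libraries, so that pass is no support. Oral exceeded nasal in each of runs C, D and E, by 1.39, 0.71 and 2.37 log2 units. In the posterior palate there was no such difference: oral libraries had 14.2, 32.6 and 20.5 RPKM and nasal libraries 28.9, 14.9 and 24.3 RPKM, with a log2 difference of -0.05 (0.0280 without run H). The interaction was -1.68 log2 units (SE 0.78) and did not pass the test (unadjusted P = 0.0513, adjusted p = 1.00); without run H it was -1.60.

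On the medial-lateral axis Gli1 measured 18.1, 20.2 and 20.3 RPKM in anterior lateral and 10.5, 8.14 and 16.4 RPKM in anterior medial, without overlap. The means were 19.5 ± 1.24 and 11.7 ± 4.25 RPKM, 1.74-fold apart (log2 difference 0.80, SE 0.24, adjusted p = 0.159). As for Ptch1, anterior medial 3 lay closest to the lateral libraries, and without it the log2 difference of Gli1 was 1.07 (adjusted p = 0.0293). Without run H it was 0.77 (adjusted p = 0.369). As for Ptch1, no sequencing run held both compartments, so that run and compartment cannot be told apart. In the posterior palate Gli1 was at 5.97, 25.6 and 18.6 RPKM in lateral and at 8.48, 13.3 and 4.204 RPKM in medial. The log2 difference of 0.85 (SE 0.67, adjusted p = 0.957) became -0.38 without the lateral libraries of run H. Posterior lateral 1, the library of run B, was low for Gli1. Against anterior lateral the log2 difference was -0.46, but -1.66 without run H, which left 1 posterior library and so gives no test, and 0.10 within run H, so that its direction turned with the libraries used.

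The co-receptor Gas1 (chr13:60275766-60278896), a membrane-anchored protein that presents Shh to Ptch1, lay higher in the anterior than in the posterior libraries of 2 compartments, without passing the test. Anterior nasal libraries had 82.7, 47.1, 42.2 and 47.3 RPKM and posterior nasal libraries 21.4, 29.8 and 28.2 RPKM, with no overlap. The log2 difference was -1.01 (SE 0.27), or 2.01-fold higher in anterior, with an adjusted p of 0.0991, and it was -1.06 without run H. Without anterior nasal 1, the library at 82.7 RPKM, the log2 difference was -0.79. In the lateral compartment Gas1 was at 36.9, 38.7 and 36.1 RPKM in anterior and at 28.9, 25.1 and 24.3 RPKM in posterior (log2 difference -0.52, SE 0.13, adjusted p = 0.166; -0.39 without run H). Posterior medial did not follow, since 1 of its libraries, posterior medial 2, had 79.0 RPKM beside 28.0 and 33.0.

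With all libraries together, Gas1 averaged 32.4 ± 15.1 RPKM in the 12 posterior and 45.6 ± 14.1 RPKM in the 13 anterior libraries (SD; log2 difference -0.52, SE 0.17, adjusted p = 0.105). Without posterior medial 2 the log2 difference of Gas1 was -0.65 and the adjusted p 0.00327, and after quantile normalization of all libraries they were -0.59 and 0.0165. Without the 4 libraries of run H they were -0.46 and 0.284. Along the medial-lateral axis of the anterior palate, Gas1 lay lower in every lateral library than in any medial one, with 37.2 ± 1.35 RPKM in lateral and 47.7 ± 1.71 RPKM in medial (SD, n = 3 each; log2 difference -0.36, SE 0.11, adjusted p = 0.150; -0.34 without run H). Run and compartment cannot be told apart there, since no sequencing run held both compartments.

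Cdon (chr9:35228709-35315237), an immunoglobulin superfamily co-receptor, lay higher in the nasal libraries. Anterior oral libraries had 26.1, 29.0 and 22.5 RPKM and anterior nasal ones 35.1, 41.8, 34.8 and 31.4 RPKM. Posterior oral libraries had 30.5, 32.7 and 29.5 RPKM and posterior nasal ones 39.2, 43.9 and 39.2 RPKM. In neither region did the groups overlap, with or without posterior nasal 3 of run H, and in neither did the difference pass the test. The log2 differences were -0.47 (SE 0.22) and -0.40 (SE 0.19), with unadjusted P of 0.0712 and 0.0701. The osteoblast and endothelial markers, given above, also differed between these oral and nasal libraries, and their part in the order of Cdon was not tested. Boc, its close relative, showed no such order: its log2 differences from oral to nasal were -0.11 in the anterior and 0.35 in the posterior palate.

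Among the intracellular parts of the pathway, Gli3 (chr13:15555068-15821858), the main repressor of target genes in the absence of ligand, had a slightly higher mean in the anterior palate and was not called. Its mean was 35.9 ± 4.59 RPKM over the 13 anterior and 30.5 ± 4.82 RPKM over the 12 posterior libraries (SD; log2 difference -0.24, SE 0.09, adjusted p = 0.196). After quantile normalization it was -0.31 with an adjusted p of 0.0330, and without run H -0.17 with an adjusted p of 0.483. In the posterior palate Gli3 measured 30.6, 27.6 and 27.2 RPKM in lateral and 40.3, 37.0 and 34.0 RPKM in medial, the only Hedgehog gene there without overlap (log2 difference -0.38, adjusted p = 0.957). The lateral values of 27.6 and 27.2 RPKM were those of run H, and the epithelial markers stood at 33.3 to 56.6 RPKM in posterior lateral and 80.4 to 210 in posterior medial; their part was not tested. Smo, the membrane protein that is freed when ligand binds Ptch1, and Gli2, the main activator, passed no comparison. In the anterior oral to nasal comparison, where Ptch1, Gli1 and Hhip were 2.61-fold to 3.10-fold apart, the log2 difference was -0.03 for Smo and 0.01 for Gli2 (SE 0.25 and 0.42).

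**Figure D4:**
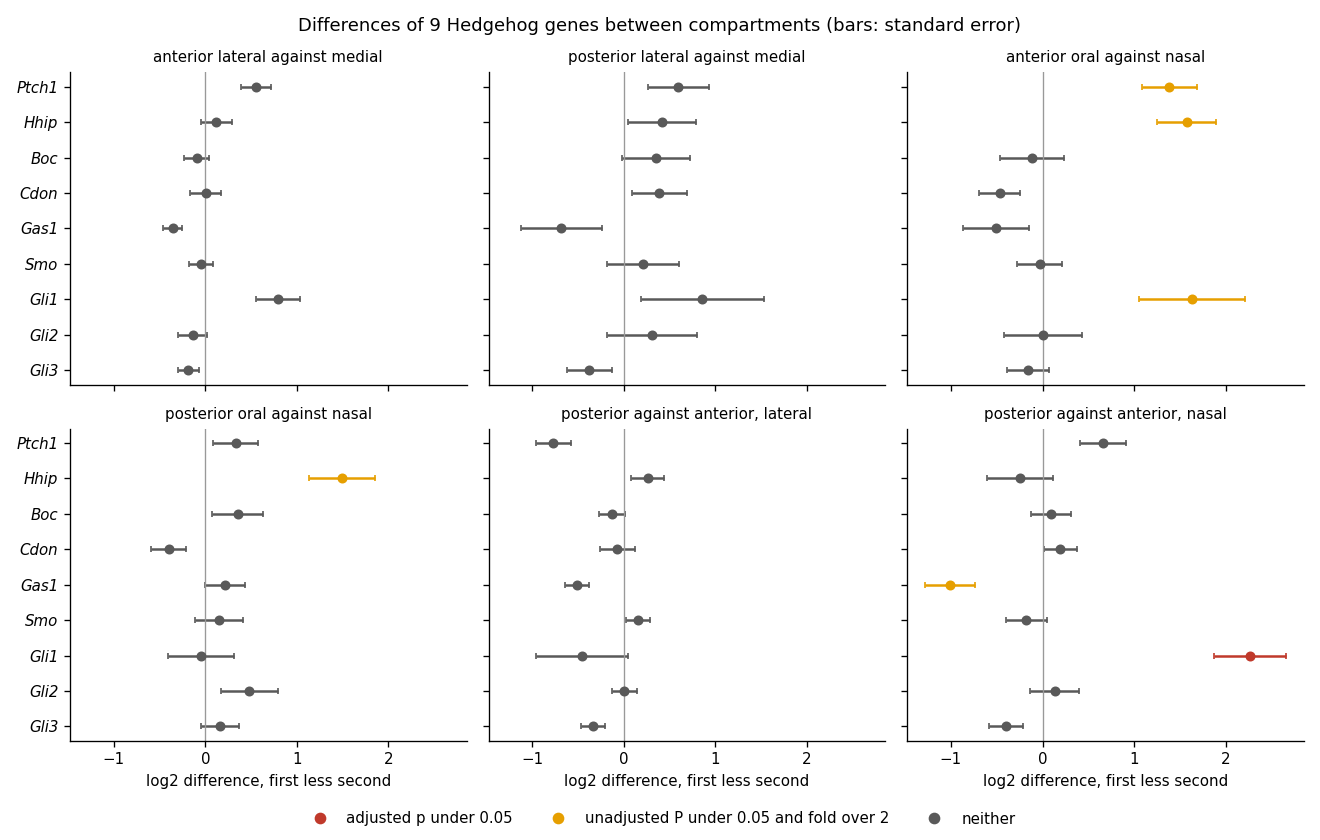
Log2 difference of 9 Hedgehog genes on the log2(RPKM + 0.1) scale, 1 panel per comparison; points are fitted differences (first named compartment less second), bars are standard errors, and colours mark the adjusted test and the study's thresholds. Gli1 between posterior and anterior nasal is the only point past the adjusted test, and Ptch1, Gli1 and Hhip lie well to the right in the anterior oral to nasal panel.

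Counted over all Hedgehog genes, the adjusted test called 0 of 9 between anterior lateral and medial (2.51% of all genes were called), 0 of 9 between posterior lateral and medial (0%), 0 of 9 between anterior oral and nasal (0%) and 0 of 9 between posterior oral and nasal (1.25%). With an unadjusted P under 0.05 those counts were 3, 0, 3 and 1, where the shares of all genes were 15%, 1.54%, 2.98% and 8%. The study's thresholds were passed by 3 of 9 between anterior oral and nasal, all higher in oral. The share of all genes was 1.44% in either direction and 0.655% higher in oral. Between posterior oral and nasal 1 of 9 passed the thresholds, Hhip, against 3.5% in either direction and 1.97% higher in oral. Gli1 in the anterior and Hhip in the posterior comparison passed the filter through their oral libraries, so those passes are no support.

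Libraries did not overlap for 3 of 9 genes between anterior lateral and medial (Ptch1, Gli1 and Gas1; 21.3% of all genes), for 1 of 9 between posterior lateral and medial (6.62%), for 3 of 9 between anterior oral and nasal (Ptch1, Hhip and Cdon; 3.67%) and for 2 of 9 between posterior oral and nasal (Hhip and Cdon; 11.8%). Apart from the anterior oral to nasal comparison, these counts lay near the share of all genes.

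Between posterior and anterior, 1 of 9 genes was called in nasal (2.21% of all genes), Gli1, whose call is no support. The adjusted test called no gene in the rest. It called 0 of 9 with all libraries (3.32% of all genes) and 0 of 9 in medial (0.106%). In lateral 0 of 10 were called (1.39%), and in oral 0 of 9 (0.179%). With an unadjusted P under 0.05 the count was 2 with all libraries (15.3% of all genes), 1 in medial (4.04%), 3 in lateral (11.6%), 0 in oral (3.57%) and 3 in nasal (18.7%). The study's thresholds were passed by 2 of 9 in nasal, Gli1 and Gas1, against 6.05% of all genes. Gli1 passed the filter through its posterior libraries, so that pass is no support. Gas1 fell short of the fold threshold without anterior nasal 1, with a log2 difference of -0.79. Libraries did not overlap for 4 of 10 genes in lateral, Ptch1, Gas1, Gli3 and Smo (18.9%), for 2 of 9 in nasal, Gli1 and Gas1 (20.3%), for 1 of 9 in medial, Ptch1 (11.9%), and for 1 of 9 in oral, Cdon (8.26%). With all libraries every gene overlapped, as did all but 0.267% of the genes tested. The oral comparison gave no adjusted p below 0.858 for any Hedgehog gene. Neither interaction called a Hedgehog gene: 0 of 9 for the oral to nasal difference (0.035% of all genes) and 0 of 10 for the lateral to medial difference (0.00902%).

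Over the 25 libraries Ptch1 and Gli1 moved together, with a Pearson r of 0.76 and a Spearman rho of 0.75 on the log2 scale. The r was 0.78 without the 2 libraries farthest from the median of Ptch1, and 0.79 between deviations from the compartment means, so that the likeness was also present among replicates. Hhip followed Ptch1 less closely (r = 0.57, rho = 0.57; 0.47 without the 2 farthest libraries), and Gli1 hardly at all (r = 0.29). The closest pair among the 10 genes was Gli2 and Boc, with r = 0.92 over the libraries and 0.93 between deviations within compartments. Without the 2 libraries farthest from the median of Gli2 it was 0.83. Over the 25 libraries Gli1 and Gas1 ran in opposite directions (r = -0.54), and so did Hhip and Cdon (r = -0.61). Without the 2 farthest libraries these were -0.41 and -0.47. Between deviations within compartments they were only -0.20 and -0.13, so that little of this was present among replicates. Libraries of 1 run and depth recur among these points, and the correlations are descriptions.

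**Figure D5:**
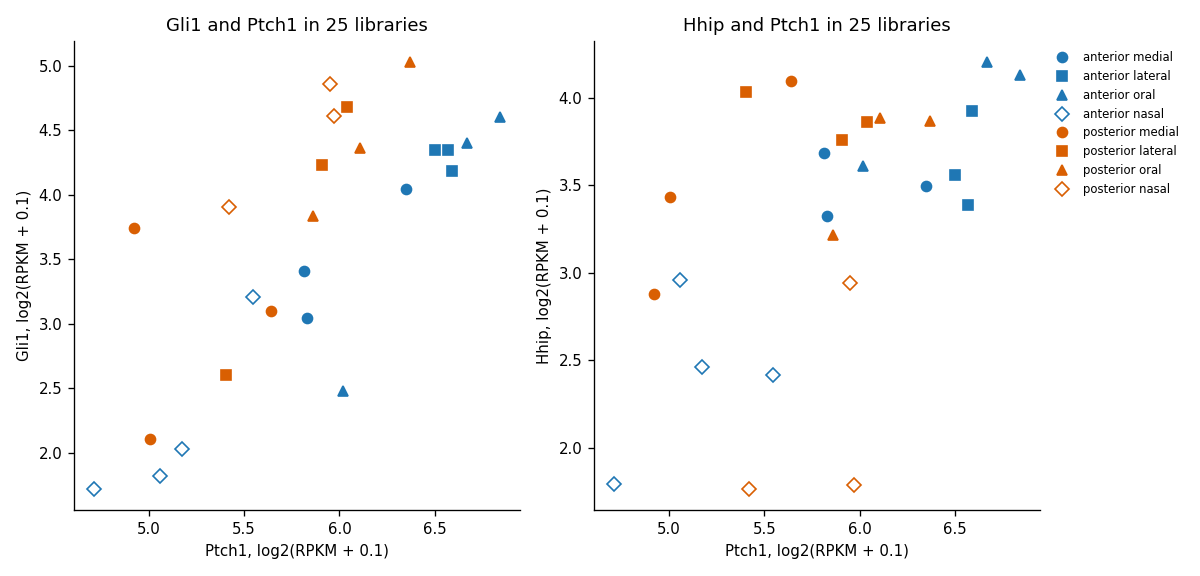
Levels of Gli1 and of Hhip against Ptch1 on the log2(RPKM + 0.1) scale, 1 point per library, with colour and symbol for the compartment. Gli1 rises with Ptch1 (r = 0.76), and Hhip does so less closely (r = 0.57).

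Of the 11913 genes compared, those with the pattern most like Ptch1 were Crabp1 (r = 0.78), a retinoic acid binding protein of the cytoplasm, Mir218-2 (0.77), Vsig2 (0.76), Gli1 (0.76) and Fras1 (0.74), an extracellular matrix protein of the basement membrane. For Gli1 they were Stard13 (0.82), Mamdc4 (0.77), Alkbh4 (0.76), Ptch1 (0.76) and Bmp1 (0.75). Each of the pair thus had the other among its nearest 5. For Hhip they were Ngfr (0.85), the low-affinity neurotrophin receptor, Adcy8 (0.84), Tspan11 (0.84), Arap3 (0.82) and Col15a1 (0.80). For Gli2 they included Zfp362 (0.94) and Boc (0.92), and for Gas1 the nearest was Basp1 (0.87). For Shh the nearest was Sprr1a (0.66), which shares with it the elevation in run H. These lists changed with the measure: at most 3 of the 5 names were shared under rank correlation and at most 1 when the 8 compartment means were compared.

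Other genes of the pathway were examined as 5 lists: ligands and their release (7 of 8 found in the table), reception (10), processing of Gli proteins (10), transport in the primary cilium (8) and targets in craniofacial mesenchyme (12). Like the ligand Shh outside run H, the ligands Ihh and Dhh were near 0, with medians of 0.171 and 0.573 RPKM and highest values of 2.30 and 3.15. Gpc3, a glypican that competes with Ptch1 for ligand, was the most abundant listed gene, with a mean of 204 RPKM. No gene of the reception, processing or cilium lists was called in any of the 12 comparisons, in which at most 4.42% of all genes were called. The listed genes that were called were targets, except Scube1. The lists were chosen with earlier results of these data known, and the study had named Osr2, Foxf2 and Foxd1 as higher in posterior oral than nasal. This split is therefore no support for a difference between targets and the other lists.

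Between anterior lateral and medial 3 of 37 listed genes were called, all higher in lateral. Of all genes 2.51% were called in either direction and 1.43% higher in lateral. Scube1, a secreted protein of the family that carries Hedgehog ligand off the producing cell, averaged 7.08 ± 0.90 and 4.16 ± 0.32 RPKM (log2 difference 0.75). It passed the filter on low values through its lateral libraries alone, so its call is no support. Osr2, a transcription factor of the palatal mesenchyme, averaged 80.8 ± 18.7 and 40.9 ± 2.84 RPKM (log2 difference 0.96, adjusted p = 0.0450). Bcl2, which protects cells from apoptosis, averaged 41.2 ± 2.24 and 23.3 ± 3.24 RPKM (log2 difference 0.83, adjusted p = 0.0242). With sequencing run in the fit of all libraries each of Scube1, Osr2 and Bcl2 had an adjusted p of 1.00, and no listed gene was called without the 4 libraries of run H. Over the single libraries left out, Scube1 lost its call without any 1 of the medial libraries (adjusted p = 0.0659 to 0.109), Osr2 without any but anterior lateral 2 (0.0897 to 0.169) and Bcl2 without any but anterior medial 3 (0.0540 to 0.105).

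Between anterior oral and nasal, where Ptch1, Gli1 and Hhip passed the study's thresholds, 0 of 35 listed genes were called. The median log2 difference of the 8 targets tested was 0.33, against -0.01 over all genes. Between posterior oral and nasal 2 of 37 were called, both forkhead transcription factors and both higher in oral. Of all genes 1.25% were called in either direction and 0.586% higher in oral. Foxf2 averaged 50.5 ± 19.4 and 13.2 ± 2.27 RPKM, 3.65-fold apart (adjusted p = 0.0374), and Foxd1 8.45 ± 2.53 and 2.22 ± 0.47 RPKM, 3.64-fold apart. Foxd1 passed the filter through its oral libraries alone, so its call is no support. Over 12 other settings Foxf2 was called in 7, with adjusted p from 0.0213 to 0.176, and Foxd1 in 5, with adjusted p from 0.0202 to 0.537. No listed gene was called there without run H. Leaving out any 1 nasal library ended the call of Foxd1 (adjusted p = 0.0666 to 0.117), and leaving out any library but posterior oral 1 that of Foxf2 (0.0880 to 0.176).

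With all libraries 1 of 28 listed genes was called between posterior and anterior, Bcl2, beside the 3.32% of all genes. It averaged 14.7 ± 5.90 RPKM in the 12 posterior and 32.8 ± 9.66 RPKM in the 13 anterior libraries, 2.44-fold lower in posterior (log2 difference -1.29, adjusted p = 0.00558). The call for Bcl2 was kept in 12 of 13 other settings and with each of the 25 libraries left out, whereas Ptch1 and Gli1 were not called in that comparison. In the nasal compartment, where Gli1 was called, 2 of 35 listed genes were, beside the 2.21% of all genes. Ccnd1, a cyclin of the cell cycle, was higher in posterior: 56.5 ± 9.54 against 20.1 ± 3.73 RPKM, 2.81-fold (adjusted p = 0.0116). Ccnd1 lost the call without posterior nasal 1 (adjusted p = 0.0711) or posterior nasal 3, the library of run H (0.0736). Over 12 other settings Ccnd1 was called in 7, with adjusted p from 0.00569 to 0.861. Bcl2 was lower there (log2 difference -1.12, adjusted p = 0.0490), a call that each single library left out ended (0.0663 to 0.191) and that was kept in 4 of 12 other settings. In medial 1 of 37 listed genes was called, beside the 0.106% of all genes. This was Foxd2, a forkhead transcription factor, listed at 0 in all 3 posterior medial libraries and at 6.28 ± 1.16 RPKM in anterior medial. It passed the filter through the anterior libraries alone, so its call is no support, and over 11 other settings it was called in 8, with adjusted p up to 0.827. In lateral 1 of 35 was called, beside the 1.39% of all genes: Bcl2 (log2 difference -1.29, adjusted p = 0.0305), which was kept without posterior lateral 1 and lost without each of the other 5 libraries (0.0800 to 0.181). That call was kept in 6 of 12 other settings. There were no calls among the 37 listed genes in oral, the 33 between posterior lateral and medial, or the 37 of either interaction. Over the 8 compartments 4 of 38 listed genes were called, beside the 4.42% of all genes: Scube1 (adjusted p = 0.0190), Foxf2 (0.00328), Foxd2 (2.55e-06) and Bcl2 (0.00743). Foxd2 was listed at 0 in 6 libraries, with a median of 1.56 RPKM. It passed the filter through the libraries where it was high, so its call is no support. With sequencing run as a term, and without run H, 1 of the 38 was called, and in both fits this was Foxd2.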

How the data were processed

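RNA from laser capture microdissected palate was amplified (NuGEN Ovation RNA-Seq System V2), tagmented with Nextera and sequenced as single-end reads of 50 bases. The submitters' processing notes name TopHat and mm9. The authors removed duplicate and multiply aligned reads in GeneSpring 12.6.1 and deposited RPKM values of 37406 genes in 25 libraries. Amplification and removal of duplicates can compress differences between highly expressed genes. Read counts were not used here; depth was worked out from the steps between low values, and counting error from the longest coding transcript of GENCODE.

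Log2(RPKM + 0.1) values were compared with limma 3.58.1 (lmFit, eBayes) in R 4.3.3, over genes that reached 5 RPKM in 3 or more of the compared libraries, or 10 RPKM in 6 for all posterior against all anterior libraries. A fold change on this scale understates changes of genes near 0. Adjusted p-values are by Benjamini-Hochberg over all genes tested, and a gene was called under 0.05. There were 11 comparisons with 1 contrast, of which 2 were interactions, and 1 F-test over the 8 compartments. The study's thresholds were a fold change above 2 and a P below 0.05, applied here to unadjusted P. All 10 Hedgehog genes were described whatever their result, with listed pathway genes named where called. The values of 1 listed gene are not reported here. The genes and lists were chosen with earlier results of these data known.

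Groups and replicate numbers came from the labels, and sequencing runs from the alignment names in the study's supplementary table. Whether equal replicate numbers pair libraries was checked by correlating deviations from group means: every pair was above 0.1 only for anterior oral against nasal (0.24, 0.22 and 0.12), and nothing in the labels pairs them, so that no block was used. Settings tried were other pseudocounts and filters, centring, quantile normalization, a mean-variance trend, 1 fit of all libraries, sequencing run, a replicate block and leaving out each library. The fits without run H, and with the 5 RPKM filter for all posterior against anterior libraries, were added after seeing the data.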

Additional observations from a re-analysis of the deposited data

Results flagged for a closer look

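In 3 of 10 sets of 4 anterior nasal libraries, 1 for each Hedgehog gene, a single library lay farther from the rest than Dixon's 95% criterion allows, which chance gives in about 1 of 20 such sets. The first was Gli1 at 9.15 RPKM in anterior nasal 4, the library of run C, where the other 3 had 3.19 to 3.98 RPKM. The second was Gas1 at 82.7 RPKM in anterior nasal 1, where the others had 42.2 to 47.3 RPKM. The third was Shh at 0.0922 RPKM in anterior nasal 4, where the other 3 libraries were listed at 0. With 3 values at 0 any value above 0 meets the criterion, so this set is no sign of an unusual library.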

How the results depend on the processing

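Most results kept their direction and their side of the threshold. Among the differences recomputed for single genes 1204 did so, 106 lost a call, 12 gained one and 48 turned in sign. The 1204 include differences called in neither fit, whereas only differences called in the main fit could lose a call. These counts are therefore no measure of how firm the calls were. The number of Hedgehog genes called became 1 between anterior oral and nasal (Ptch1) and 1 between posterior oral and nasal (Hhip) when all 25 libraries were fitted at once, 2 for all posterior against anterior after quantile normalization (Gas1 and Gli3), and 2 for posterior against anterior lateral without run H (Ptch1 and Gli1), a fit with 1 posterior library that is assumed to vary like the anterior ones and so adds no support. It became 0 for posterior against anterior nasal with no filter, with a minimum of 1 RPKM, with run as a term in either fit and without run H, and 1 over the 8 compartments with run as a term and without run H (Ptch1 in both). With 1 library left out it ranged from 0 to 2 between anterior lateral and medial, 0 to 1 for all posterior against anterior, 0 to 1 in nasal, and 2 to 3 over the 8 compartments, and it stayed at 0 in the other comparisons.

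For Gli1 the log2 difference turned to -0.38 between posterior lateral and medial without run H, to 0.0141 (both fits with run) and 0.0280 (without run H) between posterior oral and nasal, to 0.10 for posterior against anterior lateral (both fits with run), to -0.26 and -0.76 in oral (run in the fit of all and of the compared libraries), and to -1.15 for the lateral to medial interaction without run H. For Hhip it turned to 0.0425 (quantile normalization) and 0.0631 (without run H) for all posterior against anterior, to 0.0128 (centred) and 0.19 (quantile normalization) in medial and to 0.52 in nasal (run in the fit of the compared libraries). For Ptch1 the lateral to medial interaction became -0.37 without run H. With 1 library left out, Gli1 ranged from -0.36 to 0.24 between posterior oral and nasal, -0.88 to 0.16 in lateral, -0.0895 to 0.97 in oral and -0.38 to 0.68 for the lateral to medial interaction. Hhip ranged from -0.0288 to 0.24 between anterior lateral and medial, -0.14 to 0.13 for all posterior against anterior, -0.35 to 0.26 in medial, -0.28 to 0.31 for the oral to nasal interaction and -0.000187 to 0.61 for the lateral to medial interaction, and Ptch1 from -0.14 to 0.27 for the last. The cause of these changes was not tested.

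The replicate block changed no call of a Hedgehog gene; the log2 difference of Gli1 between posterior and anterior nasal was 2.60 (adjusted p = 0.0383) with it. The fit of the compared libraries with run could not be made for lateral against medial, since no run held both. Rescaling the libraries to an equal median left Shh in posterior oral at 0, its level in every library there. Depth limits Gli1 most, and Shh outside run H cannot be ranked between compartments at 6 reads or fewer.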
